A study of Mus musculus with 12 samples.

Results

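The genes described here were *Cxcl1* (ENSMUSG00000029380), *Cxcl2* (ENSMUSG00000058427) and *Cxcl5* (ENSMUSG00000029371), 3 of the 27998 genes in the count tables, chosen by their symbols as chemokines that attract neutrophils. They were measured by single-cell RNA sequencing in CD45-negative stromal cells from hind limb joints of mice with serum transfer-induced arthritis (STIA), a model in which serum of arthritic K/BxN mice, the offspring of the KRN line, is injected into healthy mice. The 12 libraries carried 4 labels, with 3 libraries per label. These were rest, for day 0 with no treatment, then peak, for days 7 to 9, then resolving, for day 15, and last resolved, taken on day 22. All animals were wild-type C57BL/6 mice, male and 8 to 10 weeks old by the study's methods, and the later 3 labels followed an intravenous dose of 100 µl of serum. Each library pooled the joint cells of 3 animals, so the values of single animals are not separate, and all cells had been released with collagenase at 37 °C and sorted before capture.

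CXCL1, CXCL2 and CXCL5 are small secreted proteins of the ELR-containing CXC family, and all of them bind the receptor CXCR2, which mouse neutrophils carry. Stromal and epithelial cells make them within hours of exposure to interleukin 1, tumour necrosis factor or interleukin 17, through NF-kB, the atypical IkB protein encoded by *Nfkbiz* and the stabilisation of mRNAs that otherwise decay fast. In a joint they are known as signals that bring neutrophils out of the blood and into the synovium. Since the cells were sorted as CD45-negative, the data mostly show the side that sends the signal and few of the neutrophils that receive it. A small cluster of 112 cells, called immune cells below, was led by the neutrophil genes *S100a8*, *S100a9* and *Ngp*. Its chemokine levels may thus come in part from cells that receive the signal.

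The 3 genes lie on the plus strand of chromosome 5 in one chemokine cluster (GRCm38, also called mm10, GENCODE M21). *Cxcl5* is at chr5:90759360-90761624, *Cxcl1* at chr5:90891241-90893115 and *Cxcl2* at chr5:90903871-90905938, a span of 146579 bases. *Cxcl1* and *Cxcl2* are neighbours whose starts are 12630 bases apart, whereas 131881 bases separate the starts of *Cxcl5* and *Cxcl1*. *Ppbp*, *Pf4*, *Cxcl3* and *Cxcl15*, other chemokine genes, lie in that interval.

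For *Cxcl1* and *Cxcl2*, the stretch of each promoter around its NF-kB motif is shown first. Whether the motif has a part in the levels below was not tested. The sequences come from RefSeq promoter windows on GRCm38.p6, which were found for 2 of the 3 genes, *Cxcl5* having none in the table used. Both are on the plus strand, 5′ to 3′, and the capitals mark the 10 bases of the NF-kB motif searched. The *Cxcl1* stretch is chr5:90891124-90891223 and the *Cxcl2* stretch chr5:90903752-90903851.
Cxcl1: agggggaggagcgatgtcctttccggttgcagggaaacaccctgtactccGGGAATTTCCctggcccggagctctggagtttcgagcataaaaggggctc
Cxcl2: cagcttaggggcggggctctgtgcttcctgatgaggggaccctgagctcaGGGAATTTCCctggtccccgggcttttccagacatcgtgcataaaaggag
The motif starts 71 bases upstream of the RefSeq start of *Cxcl1* and 97 bases upstream of that of *Cxcl2*. Aligned on the motif, 45 of the 100 positions were identical, or 35 of 90 without the motif itself, and the longest shared run was 14 bases. Searched on both strands, it was in 29 of 32851 promoter windows (0.08828%), which reach from 250 bases before to 50 bases after a gene's start. A second form of the motif, which differs from it in 1 base and in both genes overlaps it on the other strand, was in 36 windows (0.1096%). A looser form that leaves 3 inner positions free, includes both others and had 3 matches in each gene was in 1825 windows (5.555%). TATAAA, found in 4473 windows (13.62%), had no match in either gene.

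After limits on genes and UMIs (unique molecular identifiers, 1 per captured mRNA molecule) per cell, 20060 of 21042 deposited cells were kept, 1227 to 2747 per library, with 7468914 to 16566202 UMIs per library and no cell barcode shared. Cells were clustered without the 3 chemokines, without the other genes of their pathway listed here and without *Hk2*, and clusters were named from marker lists, so that a name such as fibroblast stands for cells that carry fibroblast markers. Fibroblasts were 12598 cells (62.8%) in 10 clusters, numbered F0 to F12. The libraries did not group by label. Each barcode ends in a suffix from 1 to 12, and runs of 3 consecutive suffixes (1 to 3, 4 to 6, 7 to 9 and 10 to 12), each with libraries of 3 different labels, differed far more from each other than the labels did. The sources used here do not say what the suffix order stands for, and whatever sets the runs apart cannot be told apart from the runs themselves. The levels in fibroblasts are therefore given by label and by run. Comparisons of cell types, clusters and *Hk2* status take the 12 libraries together and are mostly not split by run. Levels are given in CPM, a gene's share of all UMIs in the summed cells of a type in a library with 10 or more such cells, on the scale where 10000 CPM is 1% of the UMIs. In such sums, fewer cells with the mRNA and less mRNA per cell cannot be told apart, and the share of cells with a UMI is given beside the level where it matters.

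*Cxcl1* UMIs were found in cells of every type named here, and the level differed by type. It was highest in muscle cells with satellite cell markers (5761 ± 1049 CPM, SD, n = 8 libraries, 4580 to 7870) and in perivascular cells (5082 ± 1923, n = 12, 1676 to 7334), the contractile cells around vessels. Fibroblasts followed at 2312 ± 908 CPM (n = 12, 1144 to 3937). The proliferating cluster, 430 of whose 646 cells came from suffixes 4 to 6, held 1804 ± 900 (n = 6). Schwann cells, at 1154 ± 1301 (n = 3), could not be placed. Tenocytes (541 ± 202), vascular endothelial cells (537 ± 105) and osteoblasts (487 ± 185), each in 12 libraries, lay close together. Chondrocytes had 347 ± 225 (n = 8), lymphatic endothelial cells 118 ± 62.2 (n = 10) and the few immune cells 61.6 ± 19.6 (n = 3). Erythroid cells, which should lack *Cxcl1* and are left out of this order, gave 608 ± 452 CPM in the 2 libraries with 10 or more of them (288 and 928). The means from tenocytes downward were under the mean of those 2 erythroid libraries. Pooled over all 61 erythroid cells, however, the level was 264 CPM. On that pooled scale tenocytes had 546, vascular endothelial cells 536, osteoblasts 463 and chondrocytes 363. Immune cells (184) and lymphatic endothelial cells (117) were under the pooled erythroid level.

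Between neighbours in that order, 9 pairs were compared within libraries by a two-sided exact permutation test. *Cxcl1* in perivascular cells was above fibroblasts in 12 of 12 libraries (mean difference 1.12 on the log2(CPM + 10) scale, exact p = 0.000488, the smallest that 12 libraries allow, adjusted p = 0.00439). None of the other 8 pairs passed, muscle over perivascular cells included (exact p = 0.367). With 3 shared libraries, as for Schwann and immune cells, a pair cannot go below an exact p of 0.25.

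*Cxcl2* followed the same upper order, with muscle cells at 1035 ± 583 CPM (n = 8, 143 to 1892) and perivascular cells at 573 ± 454 (n = 12, 27.8 to 1782). Proliferating cells (224 ± 85.1, n = 6) and fibroblasts (208 ± 102, n = 12, 91.2 to 428) came next. The immune cells, lowest for *Cxcl1*, had 193 ± 178 CPM of *Cxcl2* (n = 3, 52.2 to 392), a spread that covers the fibroblast mean. Vascular endothelial cells held 75.2 ± 38.0 CPM, chondrocytes 48.7 ± 56.6 and osteoblasts 41.3 ± 55.6. Schwann cells, tenocytes and lymphatic endothelial cells were at 17.5, 13.7 and 10.3 CPM. None of the 10 neighbouring pairs passed the exact permutation test.

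*Cxcl5* had another distribution. It was found in the proliferating cluster (538 ± 409 CPM, n = 6 libraries, all of suffixes 4 to 9, 76.0 to 1062) and in fibroblasts (299 ± 462, n = 12), where the SD exceeded the mean and the values ran from 0.189 to 1120 with a median of 62.1. Perivascular cells averaged 102 ± 166 CPM (n = 12, median 2.45). Chondrocytes (42.5 ± 89.3) and muscle cells (28.2 ± 53.5) had 0 UMIs in 4 and 6 of 8 libraries and over 100 CPM in 1 library each (252 and 134). Lymphatic endothelial cells (11.4), osteoblasts (10.7), immune cells (8.78), tenocytes (4.85) and vascular endothelial cells (4.07) had low means, and Schwann cells had none in the 3 libraries with 10 or more of them. Erythroid cells had 7 UMIs, all in 1 cell, which put their 2 libraries at 0 and 96.9 CPM. Within the 6 shared libraries the proliferating cells were above fibroblasts in 2. Fibroblasts were above perivascular cells in 10 of 12 libraries (exact permutation p = 0.0117, adjusted p = 0.117 over 10 pairs).

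**Figure D1:**
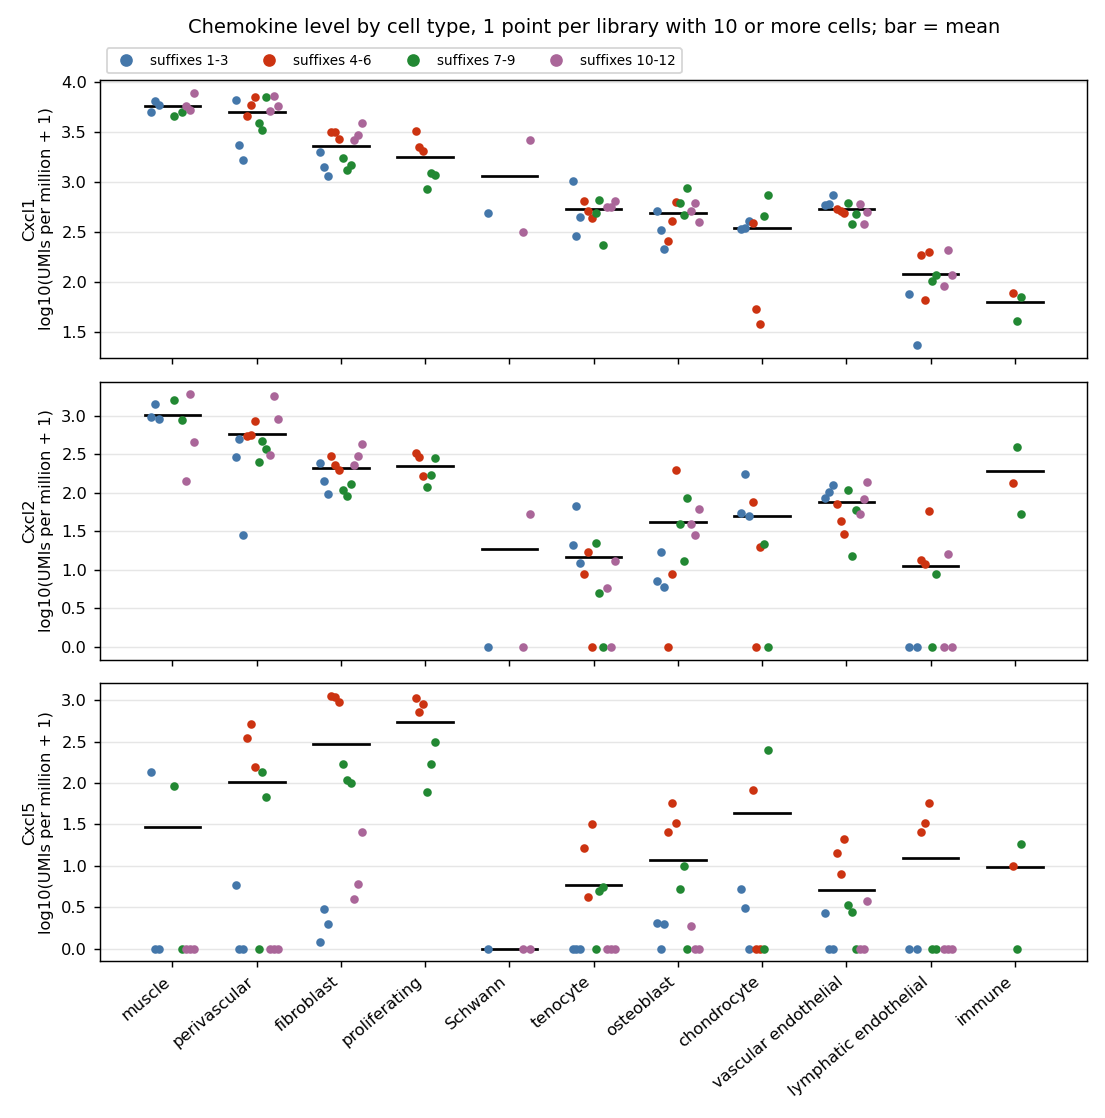
*Cxcl1* (top), *Cxcl2* (middle) and *Cxcl5* (bottom) in 11 joint cell types, as log10 of CPM plus 1. Each point is a library with 10 or more cells of the type, coloured by the run of barcode suffixes, and the black bar is log10 of the mean plus 1. *Cxcl1* and *Cxcl2* peaked in muscle and perivascular cells, while *Cxcl5* points of suffixes 4 to 6 (red) lay above those of the other runs in fibroblasts and perivascular cells.

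The tests over all 8913 genes (edgeR's quasi-likelihood test with library as a block, and a gene called at an adjusted p under 0.05 and a log2 fold change over 0.5) placed fibroblasts between these types. *Cxcl1* was 2.23-fold higher in muscle cells than in fibroblasts (log2 difference 1.15 in favour of muscle cells, given by the model as -1.15 ± 0.26, SE, adjusted p = 0.000167) and 1.86-fold higher in perivascular cells (-0.90 ± 0.23, adjusted p = 0.000668). *Cxcl2* was 3.74-fold higher in muscle cells (-1.90 ± 0.36, adjusted p = 7.62e-06) and 2.21-fold higher in perivascular cells (-1.15 ± 0.30, adjusted p = 0.000771). Against muscle cells 41.6% of all genes were called in one direction or the other, and against perivascular cells 42.6%, so a call alone does not set the chemokines apart there. The summed level of 20 dissociation and immediate early genes, which respond to the release of cells from tissue, was 32565 to 60874 CPM in muscle cells and 22419 to 38995 in perivascular cells, against 19264 to 35545 in fibroblasts, but it was also 26387 to 52924 in vascular endothelial cells. Its part in these levels was not tested.

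*Cxcl5* was 2.95-fold lower in perivascular cells than in fibroblasts (log2 difference 1.56 ± 0.37, adjusted p = 0.000183), the opposite direction to *Cxcl1* and *Cxcl2*. No type exceeded fibroblasts in *Cxcl5* by this test. Vascular endothelial cells were lower than fibroblasts in all 3 genes, 4.86-fold for *Cxcl1*, 3.28-fold for *Cxcl2* and 70.7-fold for *Cxcl5* (54.1% of genes called). Tenocytes, the cells of tendon, were lower by 3.99-fold, 12.5-fold and 53.0-fold (21.3% called). Osteoblasts were lower by 4.90-fold, 6.5-fold and 24.2-fold (28.9% called).

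In all, *Cxcl1* was lower than in fibroblasts in 7 of 10 types, *Cxcl2* in 6 and *Cxcl5* in 7. The others that were lower were chondrocytes (48.8% of genes called) and lymphatic endothelial cells (41.2%) in all 3 genes, and Schwann cells (16.4%) in *Cxcl1* and *Cxcl2*. Fibroblasts and the proliferating cluster did not pass a test for any of the 3 genes (log2 differences 0.47 ± 0.30, -0.18 ± 0.37 and 0.05 ± 0.28, with 27.2% of genes called). The immune cells did not pass for *Cxcl2* (-0.02 ± 0.69, 32.6% called) and were lower for *Cxcl1* by 5.16 ± 0.63 and for *Cxcl5* by 6.01 ± 1.12 on the log2 scale. For *Cxcl5* the contrasts with muscle cells (-0.24 ± 0.75) and Schwann cells (6.58 ± 5.86) were too uncertain to give a direction. Without the library block, the contrast with muscle cells was 3.77. Of all UMIs counted, fibroblasts held 78.3% of the 243334 of *Cxcl1*, 73.7% of the 22450 of *Cxcl2* and 82.2% of the 32576 of *Cxcl5*. Their share of the UMIs of all genes was 65.1%.

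The share of cells with a UMI differed less between types than the level did. Of all fibroblasts, 66.7% held a *Cxcl1* UMI (95% interval 65.8 to 67.5, with a median of 5794.5 UMIs per cell), against 78.0% of perivascular (median 3883), 75.3% of muscle (2573) and 43.5% of vascular endothelial (3176) ones. Erythroid cells, which should lack it, gave 24 of 61 (39.3%, 28.1 to 51.9; median 5778). With every cell thinned to 2000 UMIs these shares became 54.3%, 71.8%, 70.9%, 34.6% and 14.8%, and the last of them is read as the background that free RNA gives in any cell type. Thinned, immune cells (11.3%) and lymphatic endothelial cells (16.2%) were at or near that background, so their *Cxcl1* UMIs are not read as expression. Intervals here and elsewhere cover counting error only.

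*Cxcl2* was in 10.8% of fibroblasts and in 0 of 61 erythroid cells, which allows a share of up to 4.918%. It was in 24.3% of muscle cells and 23.4% of perivascular cells. *Cxcl5* was in 12.4% of fibroblasts, 47.5% of proliferating cells and 1 of 61 erythroid cells (1.64%). Thinned to 2000 UMIs, the shares in fibroblasts were 7.22% for *Cxcl2* and 9.04% for *Cxcl5*, and 30.6% of proliferating cells kept a *Cxcl5* UMI.

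Few fibroblasts carried most of the mRNA. For *Cxcl2* 89.2% of fibroblasts had no UMI and the top 10% of cells held 99.4% of all UMIs, with up to 329 in a single cell. *Cxcl5* was alike, with 87.6% of cells at 0, 98.9% of UMIs in the top 10% and a maximum of 254. *Cxcl1* was found in more cells, with 33.3% of cells at 0, 60.1% of UMIs in the top 10% and a maximum of 397. Only 10.8% of fibroblasts had a *Cxcl2* UMI and 12.4% a *Cxcl5* UMI. For these 2 genes the top 10% thus had to hold most UMIs, however they were spread among positive cells.

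Among the 10 fibroblast clusters, *Cxcl1* and *Cxcl2* were highest in the same cluster and *Cxcl5* in another. Cluster F1 (1592 cells, leading genes *Ifi205* and *Ccl7*, the latter a monocyte chemokine) had 6239 ± 1831 CPM of *Cxcl1* (n = 12, 3303 to 8531) and 554 ± 211 CPM of *Cxcl2* (288 to 961). Its lowest *Cxcl1* value lay above all values of F4 (1351 cells, *Inmt* and *Dkk2*; 592 ± 232, 273 to 1118) and of F12 (873 cells, *Nppc* and *Col8a1*; 680 ± 268, 214 to 1169). Against the mean of the other clusters, F1 was 4.88-fold higher in *Cxcl1* (log2 difference 2.29 ± 0.13, SE, adjusted p = 1.09e-29) and 8.07-fold higher in *Cxcl2* (3.01 ± 0.26, adjusted p = 2.98e-18), in a comparison that called 30.8% of 7423 genes.

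Cluster F2 (1494 cells, *Sfrp1* and *Chl1*) carried *Cxcl5*. Its 6 libraries with 10 or more cells gave 1580, 1784 and 1424 CPM for suffixes 4, 5 and 6 and 1307, 758 and 827 for suffixes 7, 8 and 9. The other clusters reached at most 541 CPM in any library. Against the mean of the other clusters *Cxcl5* was 26.6-fold higher (4.73 ± 0.25, adjusted p = 4.55e-31), *Cxcl1* 1.85-fold (0.89 ± 0.20, adjusted p = 9.89e-05) and *Cxcl2* 2.87-fold (1.52 ± 0.38, adjusted p = 0.000508), where 26.6% of genes were called. The dissociation genes summed to 15098 to 20682 CPM in F2 and to 19339 to 39820 in F1. A *Cxcl5* UMI was in 68.7% of F2 cells (median 10525.5 UMIs per cell) and in 53.6% when thinned.

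Cluster F8 (1032 cells, *Ccl11* and *Hsd11b1*; *Ccl11* encodes eotaxin, a chemokine for eosinophils) was higher in *Cxcl1* (1.22 ± 0.14) and *Cxcl2* (1.61 ± 0.31), where 17.1% of genes were called, and not in *Cxcl5* (0.38 ± 0.42). The lining cluster F5 (1247 cells, *F13a1* and *Prg4*, the latter encoding lubricin) was at the mean of the others for *Cxcl1* (-0.0012 ± 0.16), 2.38-fold higher for *Cxcl2* (1.25 ± 0.28, adjusted p = 8.05e-05) and 1.73-fold higher for *Cxcl5* (0.79 ± 0.31, adjusted p = 0.0247; 30.5% called). The *Pi16* sublining cluster F6 (1241 cells) was lower in *Cxcl1* (-0.68 ± 0.17) and *Cxcl5* (-3.67 ± 0.81), with 9 *Cxcl5* UMIs in all, and did not pass for *Cxcl2* (-0.14 ± 0.39; 19.4% called).

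F4 was the lowest for *Cxcl1* (-1.74 ± 0.18) and *Cxcl2* (-4.78 ± 0.64), and also lower in *Cxcl5* (-2.39 ± 0.69; 17.5% called). F12 was lower in *Cxcl1* (-1.61 ± 0.18) and *Cxcl2* (-2.06 ± 0.50; 30.5% called). F0 (1883 cells, *C1qtnf3* and *Cthrc1*) was lower in *Cxcl1* (-0.94 ± 0.20) and higher in *Cxcl5* (0.85 ± 0.33, adjusted p = 0.0321; 21.5% called). F11 (875 cells, *Hp* and *Col14a1*) was higher in *Cxcl5* alone (1.19 ± 0.35, adjusted p = 0.0115; 9.85% called), and F9 (1010 cells, *Fbln7* and *Gpnmb*) was lower in *Cxcl5* alone (-2.95 ± 0.80; 13.4% called).

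The clusters thus gave 3 higher and 4 lower for *Cxcl1*, 4 higher and 2 lower for *Cxcl2*, and 5 higher and 3 lower for *Cxcl5*. The *Cxcl5* calls were the least stable. Leaving out peak replicate 2 took away the calls of F0 (0.69, adjusted p = 0.109) and F5 (0.33, adjusted p = 0.397), and leaving out resolved replicate 1 did the same (0.48 with adjusted p = 0.276, and 0.61 with adjusted p = 0.103), which left 3 higher clusters each time. Without resolved replicate 2 F11 was no longer called (0.69, adjusted p = 0.302), and without resolving replicate 2 F0 was not (0.82, adjusted p = 0.0814).

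**Figure D2:**
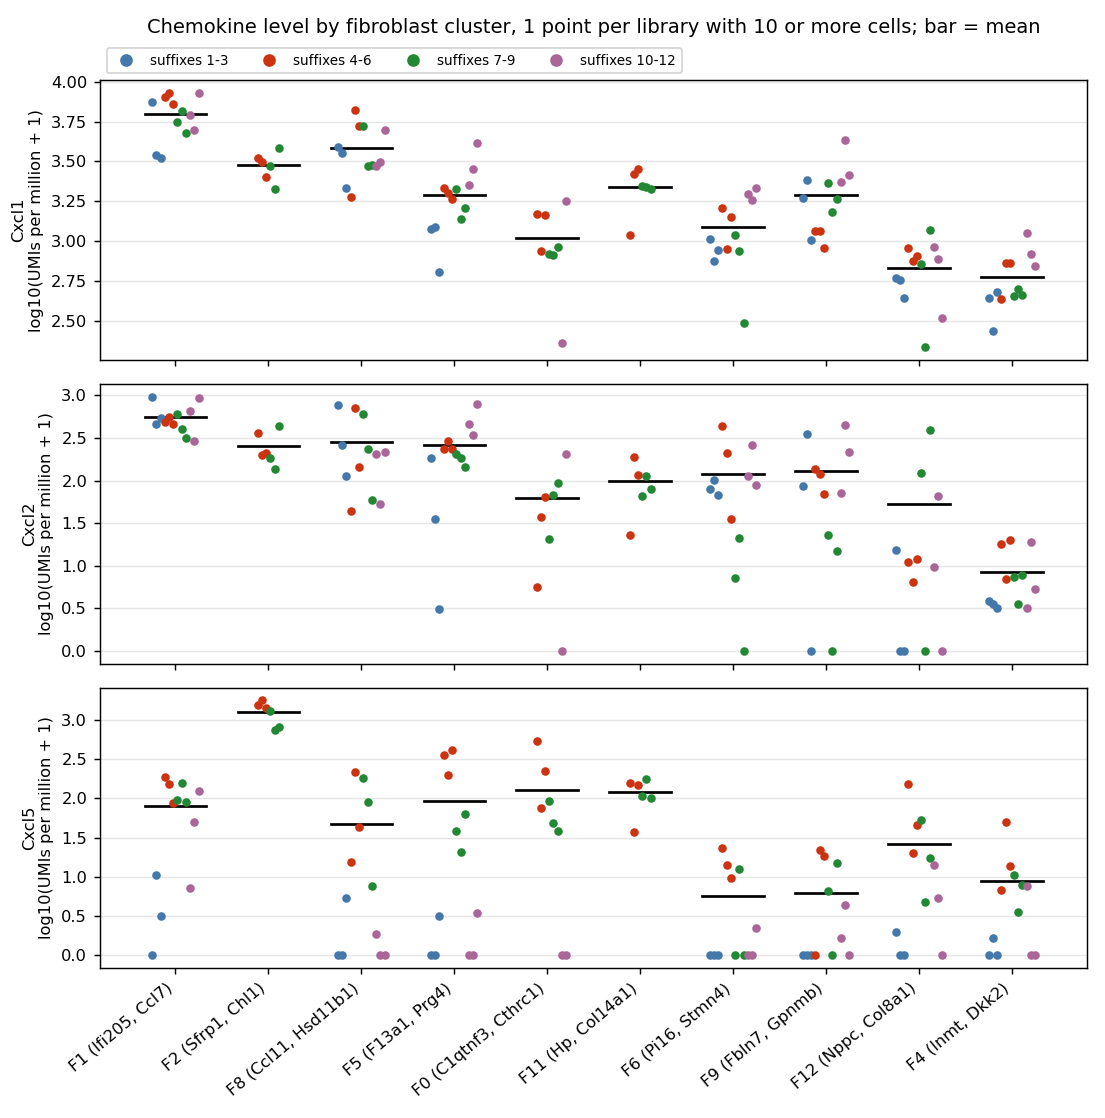
*Cxcl1* (top), *Cxcl2* (middle) and *Cxcl5* (bottom) in the 10 fibroblast clusters, each named by number and leading genes, as log10 of CPM plus 1. Points are libraries with 10 or more cells of the cluster, coloured by run of suffixes, and bars are log10 of the mean plus 1. F1 stood highest for *Cxcl1* and *Cxcl2*, F2 for *Cxcl5*, and F4 lowest for *Cxcl1* and *Cxcl2*.

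In shares of UMIs, F1 with 12.6% of fibroblasts held 24.1% of their *Cxcl1*, 26.8% of their *Cxcl2* and 1.76% of their *Cxcl5*. F2 with 11.9% of fibroblasts held 24.1%, 22.9% and 88.2%. The lining cluster F5, 9.90% of the cells, held 11.5%, 18.8% and 2.51%. F4, 10.7% of the cells, held 1.88%, 0.187% and 0.0859%. The pool of *Cxcl1* and *Cxcl2* mRNA was thus divided over many clusters, and that of *Cxcl5* was not.

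**Figure D3:**
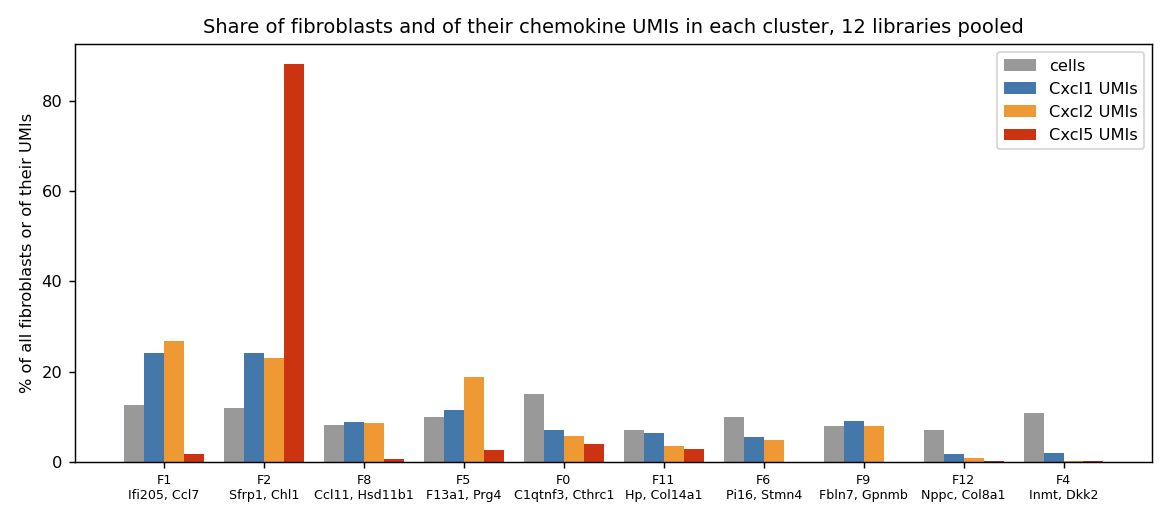
Share of all fibroblasts (grey) and of the fibroblast UMIs of *Cxcl1* (blue), *Cxcl2* (orange) and *Cxcl5* (red) in each cluster, in percent, with the 12 libraries pooled. F2 held 11.9% of the cells and 88.2% of the *Cxcl5* UMIs. Clusters differed in UMIs per cell (median 10525.5 in F2 and 4150.5 in F1), which the grey bars do not show.

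The labels address whether the chemokines changed over the course of arthritis, and in fibroblasts no gene was called between them. *Cxcl1* was at 1982, 3163 and 1499 CPM in rest replicates 1, 2 and 3, at 1416, 2720 and 2671 in the libraries labelled peak, at 1144, 1749 and 2965 in those labelled resolving and at 3174, 1321 and 3937 in those labelled resolved. The 4 ranges overlapped, so no label stood apart. The means were 2215 ± 856, 2269 ± 740, 1952 ± 927 and 2811 ± 1346 (SD, n = 3 each). Against rest, the log2 differences of *Cxcl1* were 0.05, -0.19 and 0.38 (SE 0.49 each).

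*Cxcl2* had 200 ± 61.6 CPM at rest, 190 ± 44.6 in peak, 167 ± 114 in resolving and 273 ± 170 in resolved libraries, with log2 differences from rest of -0.04 ± 0.56, -0.26 ± 0.56 and 0.50 ± 0.57. *Cxcl5* had 397 ± 603, 322 ± 553, 58.6 ± 96.3 and 418 ± 610 CPM. Within each label its highest library was at least 170 CPM and its lowest at most 24.6. Its log2 differences from rest were -0.35 ± 2.37, -2.79 ± 2.54 and 0.02 ± 2.37, and SEs of this size leave both a rise and a fall of many fold possible. Of 11840 genes, 0 were called in each of the 3 contrasts (percent called 0), while 79, 82 and 54 genes had an unadjusted p under 0.05, and DESeq2 called 1 gene for resolving. None of the 3 chemokines was called by label in any single cluster or other cell type that could be tested. Whether each library carries its right label was not tested, and since the libraries grouped by suffix and not by label, a count of 0 does not say that nothing changed over the course of arthritis.

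By run of suffixes the same values fell into order, above all for *Cxcl5*. It was at 0.189, 2.05 and 0.997 CPM in suffixes 1, 2 and 3 (rest, peak and resolving replicates 1), which is 15 UMIs in 2365 cells. It was at 1120, 1091 and 961 CPM in suffixes 4, 5 and 6 (resolved replicate 1, rest and peak replicates 2). Suffixes 7, 8 and 9 (resolving and resolved replicates 2, rest replicate 3) gave 170, 109 and 99.7, and suffixes 10, 11 and 12 (peak, resolving and resolved replicates 3) gave 3.03, 5.04 and 24.6. The 4 runs did not overlap. Over all genes, the 3 later runs lay wholly above suffixes 1 to 3 for 23, 22.5 and 6.43% of genes. The share of genes with all 4 runs apart was not counted. Each library labelled rest fell into a different run, at 0.189, 1091 and 99.7 CPM.

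Against the 15 UMIs of suffixes 1 to 3, the pooled *Cxcl5* level was 994 times as high in suffixes 4 to 6 (95% counting interval 603 to 1777), 118 times in suffixes 7 to 9 (71.2 to 210) and 8.99 times in suffixes 10 to 12 (5.32 to 16.4). Over libraries, the log2 differences were 10.01 ± 0.74 (SE, adjusted p = 3.07e-07), 6.91 ± 0.74 (adjusted p = 1.48e-05) and 3.35 ± 0.92 (adjusted p = 0.0716), the last of which missed the threshold. It was called without peak replicate 3 (3.87, adjusted p = 0.0216), the library with suffix 10. The share of fibroblasts with a *Cxcl5* UMI was 37.3 to 42.7% in suffixes 4 to 6, 7.01 to 9.40% in suffixes 7 to 9 and at most 0.716% in the others.

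*Cxcl1* had 1144 to 1982 CPM in suffixes 1 to 3 and 1321 to 1749 in suffixes 7 to 9, against 2720 to 3174 in suffixes 4 to 6 and 2671 to 3937 in suffixes 10 to 12. Against suffixes 1 to 3 the log2 differences were 1.08 ± 0.20 for suffixes 4 to 6 (adjusted p = 0.000608), 0.05 ± 0.20 for 7 to 9 and 1.17 ± 0.20 for 10 to 12 (adjusted p = 0.00841). *Cxcl2* gave 0.68 ± 0.30 (adjusted p = 0.0771), -0.51 ± 0.30 (adjusted p = 0.206) and 1.09 ± 0.30 (adjusted p = 0.0705), and none was called. Leaving out rest replicate 1 brought both positive *Cxcl2* differences past the threshold (1.10 with adjusted p = 0.00757 and 1.51 with adjusted p = 0.0129), and leaving out resolving replicate 1 the negative one (-0.79, adjusted p = 0.0487). Of 11840 genes, 34.9%, 25.3% and 2.22% were called in the 3 contrasts.

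Between suffixes 4 to 6 and 10 to 12, *Cxcl5* differed and *Cxcl1* and *Cxcl2* did not pass the test. The difference of suffixes 4 to 6 from 10 to 12 was -0.10 ± 0.20 for *Cxcl1* (adjusted p = 0.712), -0.41 ± 0.29 for *Cxcl2* (adjusted p = 0.270) and 6.66 ± 0.56 for *Cxcl5* (adjusted p = 8.37e-07), with 34.6% of genes called. The ratio of *Cxcl1* to *Cxcl2* UMIs in fibroblasts stayed between 8.11 and 16.2 over all 12 libraries. The ratio of *Cxcl1* to *Cxcl5* UMIs was 2.83 to 2.90 in suffixes 4 to 6, 10.3 to 15.0 in 7 to 9, 160 to 882 in 10 to 12 and 689 to 10472 in 1 to 3. These ratios compare libraries, since 3′ counts were not divided by gene length.

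**Figure D4:**
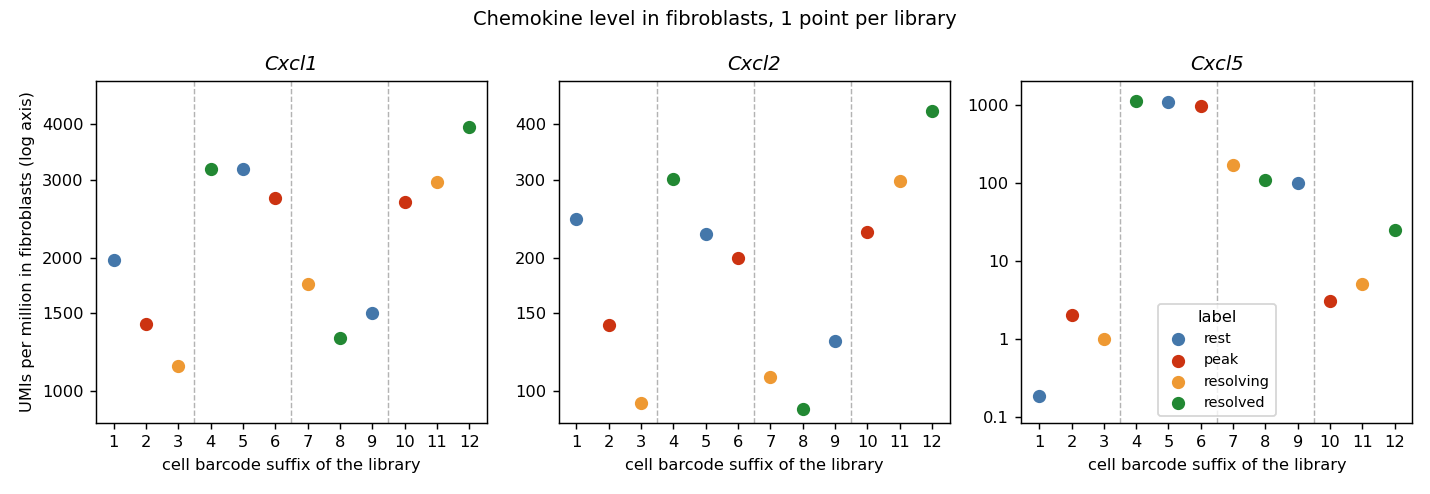
Level of each chemokine in fibroblasts, in CPM on a log axis, against the cell barcode suffix of the library. Each point is 1 library, coloured by its label, and dashed lines separate the runs of 3 suffixes. *Cxcl5* was at 961 to 1120 in suffixes 4 to 6 and at or under 24.6 in suffixes 1 to 3 and 10 to 12, and every run held 3 labels.

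Other measures moved with the runs. The summed level of the 20 dissociation genes (all 20 detected in each library) was 24331 to 33567 CPM in fibroblasts of suffixes 1 to 3, 19553 to 20495 in 4 to 6, 19264 to 22751 in 7 to 9 and 27024 to 35545 in 10 to 12. Its part in the levels of the 3 chemokines was not tested. A list of 7 neutrophil markers summed to 1.5 to 4.54 CPM in fibroblasts of suffixes 1 to 3, 8.32 to 50.4 in 4 to 6, 15.2 to 30.5 in 7 to 9 and 1.01 to 11.7 in 10 to 12. Of its 7 markers, 2 to 7 were detected per library, and the defining marker *Ly6g* was at 0 in 10 of 12 libraries. The part of these traces in the *Cxcl5* levels was not tested.

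The mix of fibroblast clusters differed by run as well. F2 made up 43.7% of fibroblasts in suffixes 4 to 6, 4.67% in 7 to 9 and 1 cell each in the other runs, and 87.0% of its cells came from suffixes 4 to 6. F0 and F11 came mainly from suffixes 7 to 9 (88.8% and 83.1%). In suffixes 4 to 6, F2 held 22012 of 23354 *Cxcl5* UMIs (94.3%). In suffixes 7 to 9 it held 1603 of 3214 (49.9%), followed by F0 (22.6%) and F11 (19.7%). In suffixes 10 to 12, F1 held 165 of 195 (84.6%), and in suffixes 1 to 3 it held 10 of 15. A cluster of which 1 run holds most cells may be that run and not a cell type.

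An alternative chosen after seeing the data left out F0, F2 and F11, the clusters of which 1 run holds over 80% of the cells. F9, with 66.1% of its cells from suffixes 10 to 12, stayed in. The log2 differences of *Cxcl5* from suffixes 1 to 3 were then 7.24 ± 0.70 for suffixes 4 to 6 (adjusted p = 1.92e-05) and 5.15 ± 0.79 for 7 to 9 (adjusted p = 0.00121), both called, and 3.36 ± 0.87 for 10 to 12 (adjusted p = 0.0599), not called. *Cxcl1* was called in suffixes 4 to 6 (1.29, adjusted p = 0.00134) and 10 to 12 (1.19, adjusted p = 0.00904) and not in 7 to 9 (0.42, adjusted p = 0.237). *Cxcl2* was called in none of them (0.81, 0.06 and 1.10, with adjusted p = 0.108, 0.944 and 0.0783).

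Within single clusters it could be followed where all runs had cells. In the lining cluster F5, *Cxcl5* was at 0, 0 and 2.12 CPM in suffixes 1 to 3, at 359, 198 and 413 in 4 to 6, at 37.3, 19.7 and 63.1 in 7 to 9 and at 0, 0 and 2.48 in 10 to 12. The order of the runs was that of all fibroblasts except that suffixes 1 to 3 and 10 to 12 overlapped. The log2 differences were 8.81 ± 0.67 (adjusted p = 8.1e-08; 17.9% of genes called), 5.68 ± 0.99 (adjusted p = 0.000727; 11.4%) and 0.44 ± 2.02, and since suffixes 1 to 3 had 1 UMI the pooled ratio of suffixes 4 to 6 is known only as 571, with a counting interval of 102 to 22576. *Cxcl1* and *Cxcl2* in F5 were highest in suffixes 10 to 12, at 2254, 2851 and 4145 CPM and at 461, 338 and 791 CPM, against 1196, 1220 and 639 and 184, 34.1 and 2.12 in suffixes 1 to 3. These rises were 1.61 ± 0.23 (adjusted p = 0.0018) and 2.73 ± 0.52 (adjusted p = 0.0153; 0.74% called), and those of suffixes 4 to 6 were 0.92 ± 0.23 (adjusted p = 0.00862) and 1.60 ± 0.54 (adjusted p = 0.0443).

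In F1, which had the highest *Cxcl1*, *Cxcl5* was called in suffixes 4 to 6 and 7 to 9, and *Cxcl1* and *Cxcl2* were called in no run. Whether the genes differ in this was not tested. *Cxcl5* was at 0, 9.57 and 2.11 CPM in suffixes 1 to 3, at 187, 152 and 87.4 in 4 to 6, at 93.2, 155 and 89.7 in 7 to 9 and at 6.23, 48.3 and 123 in 10 to 12. Its log2 differences were 4.72 ± 0.83 (adjusted p = 0.00347; 2.33% of genes called), 4.39 ± 0.93 (adjusted p = 0.0336; 0.569%) and 3.50 ± 0.89 (adjusted p = 0.146; 0.235%). The log2 differences of *Cxcl1* were 0.73, 0.28 and 0.50 and those of *Cxcl2* -0.38, -0.52 and -0.01.

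Elsewhere, *Cxcl5* was higher in suffixes 4 to 6 than in 1 to 3 in F8 (6.18 ± 1.10; 3.71% of genes called), F12 (6.29 ± 1.12; 1.23%), osteoblasts (5.38 ± 0.67; 1.01%) and perivascular cells (7.01 ± 1.09; 20.8%). In perivascular cells it was 346, 511 and 156 CPM in suffixes 4 to 6, against 1 UMI in suffixes 1 to 3 and none in 10 to 12, and in suffixes 7 to 9 it was higher than in 1 to 3 as well (5.05 ± 1.37; 18.1%). Osteoblasts did not pass in suffixes 7 to 9 (2.65 ± 0.97, adjusted p = 0.290; 0.0155%). Pooled *Cxcl5* levels in suffixes 4 to 6 were 120 CPM in F8, 60.3 in F12 and 38.5 in osteoblasts (39 UMIs), against 1053 in all fibroblasts. Lymphatic endothelial cells had 37.0 CPM there (9 UMIs), tenocytes 15.9 and vascular endothelial cells 12.5. The part of free RNA in such low levels was not tested. *Cxcl1* was higher in suffixes 10 to 12 than in 1 to 3 in F4 (1.25 ± 0.20; 1.26%) and F6 (1.24 ± 0.24; 0.753%). In lymphatic endothelial cells *Cxcl1* was the 1 chemokine with enough UMIs to be tested, and it was not called (log2 differences of at most 1.39, with 10.9, 1.8 and 0.435% of genes called, and 0.06 for suffixes 4 to 6 over 10 to 12, 8.46%). F0, F2, F11, muscle, Schwann, proliferating, chondrocyte and immune cells had too few libraries in some run to be tested.

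The change in *Cxcl1* was smaller in vascular endothelial cells and tenocytes. In vascular endothelial cells *Cxcl1* was at 595, 609 and 746 CPM in suffixes 1 to 3, at 540, 515 and 488 in 4 to 6, at 612, 380 and 474 in 7 to 9 and at 609, 380 and 499 in 10 to 12. The differences from suffixes 1 to 3 were -0.30, -0.40 and -0.36 there and -0.11, -0.29 and 0.11 in tenocytes, and none was called. The change from suffixes 1 to 3 was larger in fibroblasts than in vascular endothelial cells by 1.38 ± 0.23 for suffixes 4 to 6 (adjusted p = 0.000386; 8.24% of genes called) and by 1.56 ± 0.23 for suffixes 10 to 12 (adjusted p = 0.00226; 0.533%). For *Cxcl2* the difference was 1.85 ± 0.43 in suffixes 4 to 6 (adjusted p = 0.00839). Against tenocytes it was 1.09 ± 0.27 for *Cxcl1* in suffixes 4 to 6 (adjusted p = 0.00801; 8.64%), and for *Cxcl2* 2.68 ± 0.75 in suffixes 4 to 6 (adjusted p = 0.0195) and 3.49 ± 0.67 in 10 to 12 (adjusted p = 0.00986; 0.205%). These were 6 of 30 such differences tested, over 4 types, and none against perivascular cells or osteoblasts was called. For *Cxcl2*, the other type was itself lower than in suffixes 1 to 3. Tenocytes had 45 *Cxcl2* UMIs in suffixes 1 to 3, 6 in 4 to 6 and 8 in 10 to 12. In vascular endothelial cells the pooled ratio of suffixes 4 to 6 to 1 to 3 was 0.439 (counting interval 0.327 to 0.584). In fibroblasts alone *Cxcl2* was called in no run.

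Within fibroblasts, a *Cxcl1* UMI was more frequent among cells with a *Cxcl2* or *Cxcl5* UMI than among cells without one. In each library, cells with a *Cxcl2* UMI were compared with cells without one. Of the former 84.2 to 97.0% (median 90.3%) also had a *Cxcl1* UMI, and of the latter 46.8 to 80.7% (median 60.9%). The share was higher in 12 of 12 libraries, and also in 12 of 12 after thinning to 2000 UMIs (80.2 to 94.9% against 34.2 to 69.4%). Pooled, 1244 of 1357 *Cxcl2*-positive fibroblasts (91.7%) had *Cxcl1*. For *Cxcl5*, 1408 of 1559 positive fibroblasts (90.3%) had a *Cxcl1* UMI, against 63.3% of the others, with the runs pooled. Within suffixes 4 to 6 the shares were 92.1% against 76.0%, and within suffixes 7 to 9 they were 84.8% against 57.3%. The share was higher in 11 of 12 libraries, or 9 of 12 after thinning. Outside suffixes 4 to 9 no library had over 9 *Cxcl5*-positive fibroblasts, and all the exceptions lay there. *Cxcl2* was found in *Cxcl5*-positive cells more often than in the others in 8 of 12 libraries, among them all those of suffixes 4 to 9. These are descriptions of cells that share libraries, clusters and depth, with no test.

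**Figure D5:**
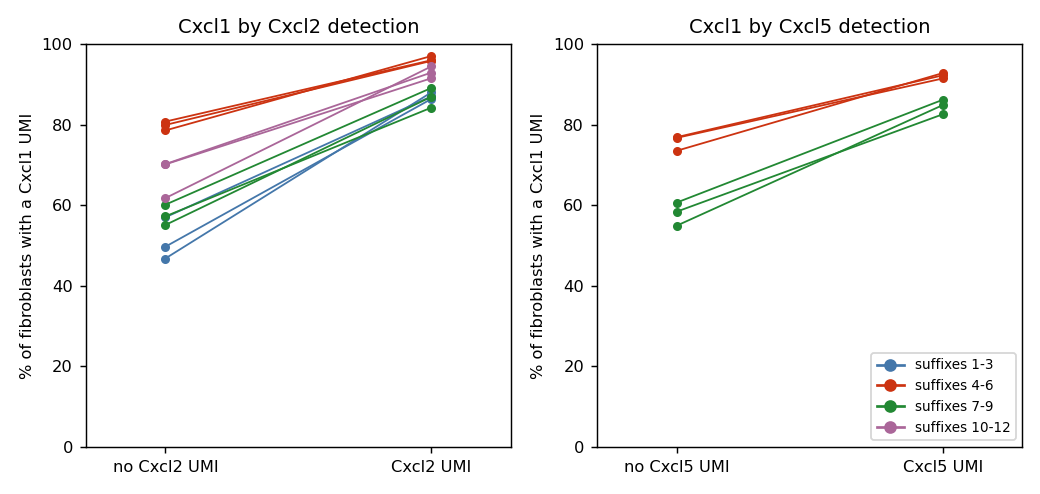
Percent of fibroblasts with a *Cxcl1* UMI among cells without and with a *Cxcl2* UMI (left) and without and with a *Cxcl5* UMI (right). Each line is a library with 10 or more positive cells, coloured by run of suffixes. On the left all 12 lines rose, from 46.8 to 80.7% up to 84.2 to 97.0%.

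*Hk2*, which encodes hexokinase 2, the enzyme of glucose phosphorylation that the study is about, was used to divide the fibroblasts of each library into cells with and without an *Hk2* UMI. *Cxcl1* averaged 3357 ± 775 CPM in positive and 1210 ± 522 CPM in negative cells (SD, n = 12) and *Cxcl2* 310 ± 99.2 and 99.3 ± 68.7 CPM, both higher in 12 of 12 libraries. *Cxcl5* had a median of 109 CPM in positive cells (0 to 1361) and 24.5 in negative cells (0 to 1097), and was higher in 10 of 12 libraries. The test gave 1.06 ± 0.21 (adjusted p = 0.000774) for *Cxcl5*, where 6.65% of 10044 genes were called and 4.29% called higher. A cell with more UMIs has more chance to show an *Hk2* UMI. With cells thinned to 2000 UMIs the *Cxcl5* difference was 0.29 (adjusted p = 0.263), and with negative cells matched in cluster and UMIs it was 0.36 (adjusted p = 0.0779; higher in 8 of 12 libraries), neither of which was called. The same test gave 1.70 for *Cxcl1* and 1.92 for *Cxcl2*, both called with any 1 library left out. With matched cells *Cxcl1* was at 3123 ± 817 CPM in positive and 1403 ± 504 in negative cells, higher in 12 of 12 libraries. *Cxcl2* was at 271 ± 104 and 121 ± 90.4 CPM there, higher in 11 of 12.

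The other genes of the pathway were taken from a list of 41 genes in 6 groups (other ELR chemokines, receptors and scavengers, cytokine and Toll-like receptors, signalling and transcription factors, mRNA decay and feedback, and other neutrophil factors of stroma), of which 40 were in the tables. *Cxcr1* and *Il17a*, encoding a chemokine receptor and interleukin 17A, had 0 UMIs in all 20060 cells, and *Cxcr2* had 45. The list is described by its counts beside those of all genes. F1, the cluster with the highest *Cxcl1* and *Cxcl2*, had 22 of 29 tested genes higher and 0 lower (median log2 difference 1.09, against -0.03 over all genes, of which 16.8% were called higher and 13.9% lower). F2, the *Cxcl5* cluster, had 6 higher and 3 lower of 29 (median 0.14, against 0.01 over all genes, of which 13% were called higher and 13.7% lower).

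In F1 the receptor genes *Il1r1* (1.93), *Il17ra* (1.88) and *Osmr* (1.51), for interleukin 1, interleukin 17 and oncostatin M, were higher, as was *Nfkb1* (2.05), which encodes an NF-kB subunit. The decoy receptor gene *Ackr1* (2.26), whose product binds chemokines without signalling, *Il6* (2.72) and *Lif* (2.37) were higher too. All 6 genes of mRNA decay and feedback were higher, among them *Zfp36l1* (1.62) and *Tnfaip3* (1.34). F2 was higher in *Saa3* (4.65), an acute phase gene, in *Lif* (1.59), in *Lcn2* (1.37), which encodes a neutrophil-associated lipocalin, in *Il1r1* (0.95), *Nfkb2* (0.64) and *Il6* (0.60), and lower in *Ackr1* (-2.20), *Traf3ip2* (-0.69) and *Tlr4* (-0.60).

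Between runs in fibroblasts, 31 of the listed genes were tested. Against suffixes 1 to 3, 12 were higher and 5 lower in suffixes 4 to 6 (median 0.33, against -0.02 over all genes, of which 16.8% were called higher and 18.2% lower). In suffixes 7 to 9, 2 were higher and 8 lower (median -0.25, against 0.00, with 13.5% of all genes higher and 11.7% lower). In suffixes 10 to 12, 6 were higher and 0 lower (median 0.33, against -0.01, with 1.55% higher and 0.676% lower). By label, 0 of 31 were called in each contrast. *Nfkbiz* was the 1 listed gene higher in both suffixes 4 to 6 and 10 to 12 (0.56 and 0.87), and *Ackr3*, which encodes a scavenging receptor, was lower in the first and higher in the second (-0.66 and 0.94).

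Of the 9 other neutrophil factors listed, 5 were tested in suffixes 4 to 6, with 4 higher and 0 lower. These were *Saa3* (3.97), *Lif* (2.53), *Lcn2* (2.19) and *Csf3*, which encodes the neutrophil growth factor G-CSF and had 6.52 to 11.1 CPM there against 4 UMIs in suffixes 1 to 3. *Il6* was not called (0.67, adjusted p = 0.0936). *Cxcl3*, an ELR chemokine gene that lies between *Cxcl5* and *Cxcl1*, was at 0.25 to 0.76 CPM in suffixes 1 to 3, 40.4 to 52.4 in 4 to 6, 6.12 to 21.5 in 7 to 9 and 1.46 to 11.9 in 10 to 12. Like *Cxcl5* it was highest in suffixes 4 to 6 and lowest in 1 to 3, while the other runs overlapped. *Saa3* had 11.2 to 130 CPM in suffixes 1 to 3, 575 to 1335 in 4 to 6, 498 to 670 in 7 to 9 and 7.29 to 32.2 in 10 to 12. *Il1r1* (0.99), *Nfkb2* (0.99), *Tnfrsf1b* (0.72), *Nfkb1* (0.55), *Relb* (0.54) and *Il17ra* (0.53) were higher there, and *Ackr1* (-1.77) and *Tlr4* (-1.23) lower.

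In suffixes 10 to 12 the 6 called genes were 4 of the 6 tested for mRNA decay and feedback, namely *Tnfaip3* (0.88), *Zfp36* (0.86), *Nfkbia* (0.69) and *Zfp36l1* (0.53), with *Nfkbiz*, 1 of 8 signalling and transcription factors, and *Ackr3*, 1 of 2 receptors and scavengers. *Saa3* (-1.98, adjusted p = 0.143) and *Lif* (-0.37, adjusted p = 0.728) were not called there. *Hk2*-positive fibroblasts had 15 of 30 listed genes higher and 0 lower (median 0.54, against -0.00 over all genes, of which 4.29% were called higher and 2.36% lower). With matched negative cells the genes called fell from 668 to 328, and the listed genes were not counted again there.

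The genes whose levels were most like those of each chemokine were ranked by Pearson's r of log2(CPM + 10) over 192 sums from 21 cell types and clusters, among 10707 genes. The sums share libraries and cell numbers, so r is a description without a p. For *Cxcl1* the 5 nearest were *Ccl2* (0.812), the monocyte chemokine, *Nfkb1* (0.698), *Tnfaip6* (0.680), *Ptp4a1* (0.658) and *Spry2* (0.656). For *Cxcl2* they were *Fosl1* (0.671), *Nfkb1* (0.639), *Etf1* (0.632), *Ccl2* (0.609) and *Tubb6* (0.588). For *Cxcl5* they were *Il1rl1* (0.711), which encodes the interleukin 33 receptor, *Rps2* (0.676), *Saa3* (0.673), *Mif* (0.666) and *Fbn2* (0.659). *Cxcl1* and *Cxcl2* had r = 0.742 with each other, and *Cxcl5* had 0.358 with *Cxcl1* and 0.309 with *Cxcl2*.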

How the data were processed

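The authors aligned and counted 10x 3′ libraries with Cell Ranger on mm10 (annotation not given in the sources used here) and deposited, for each cell, a UMI count per gene as a whole number. Every library had the same median, 5358 UMIs per deposited cell, which leaves a common scaling of depth before deposit possible.

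Cells with over 500 and under 5000 genes, over 500 UMIs and under the study's upper UMI limit of their library were kept. Cells were clustered in scanpy 1.11.5 (Python 3.11.15) from counts scaled to 10000 per cell, 2000 variable genes, 30 principal components, 20 neighbours and leidenalg 0.10.2 at resolution 1. Clusters were named from marker lists. The precedence of lymphatic over vascular endothelial markers, and leaving 2 clusters of cartilage and muscle fibre genes unnamed, were decided after the clusters were seen. Scrublet called 56 cells (0.279%), so doublets stayed in and the 6% with the highest scores were removed as an alternative.

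Counts were summed per library and cell group (10 or more cells) and tested with edgeR 4.0.16 (R 4.3.3; TMM, filterByExpr, glmQLFTest, Benjamini-Hochberg adjustment over all genes tested, all two-sided). A gene was called at an adjusted p under 0.05 and an absolute log2 fold change over 0.5. Libraries of one label were separate pools of animals. Replicate numbers came from the labels and were not taken as pairing, since not every pair of libraries of one number had deviations correlated above 0.1. Exact permutation tests flipped signs within libraries. Intervals are 95% Wilson intervals for shares and exact conditional ones for ratios. The pipeline was tested on simulated data. Alternatives included DESeq2 1.42.0, RLE scaling, no filter on low counts, other limits and leaving out each library.

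The genes named are the 3 chemokines, the listed pathway genes and, for each chemokine, the 5 of highest r. The chemokines, lists and tests were chosen with earlier results of these data known. Reads shared with near-identical sequence elsewhere could have been split or dropped by the authors' counting.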

Additional observations from a re-analysis of the deposited data

Results flagged for a closer look

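The change between runs of barcode suffixes differed between fibroblasts and another cell type in 6 of 30 tests of the difference itself. On the log2 scale, fibroblasts minus vascular endothelial cells gave 1.38 for *Cxcl1* in suffixes 4 to 6, 1.56 for *Cxcl1* in suffixes 10 to 12 and 1.85 for *Cxcl2* in suffixes 4 to 6. Fibroblasts minus tenocytes gave 1.09 for *Cxcl1* in suffixes 4 to 6, 2.68 for *Cxcl2* in suffixes 4 to 6 and 3.49 for *Cxcl2* in suffixes 10 to 12. The tenocyte side of the *Cxcl2* values was 45 UMIs in suffixes 1 to 3, 6 in 4 to 6 and 8 in 10 to 12.

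In 6 cases the highest library stood apart from the others of its cell group by Dixon's criterion, all the libraries with 10 or more cells being taken as 1 group of 4 to 10. *Cxcl2* in F0 reached 203 CPM in resolving replicate 3 (47 UMIs in 20 cells), where the next library had 93.4. *Cxcl2* in chondrocytes reached 172 CPM in peak replicate 1, next 75.1. *Cxcl2* in lymphatic endothelial cells reached 57.1 CPM in peak replicate 2 from 4 UMIs, next 14.9. *Cxcl2* in the unnamed cluster led by muscle fibre genes was 5.21 CPM in peak replicate 3 from 1 UMI and 0 elsewhere. *Cxcl5* in F0 reached 541 CPM in resolved replicate 1 (116 UMIs in 23 cells), next 225. *Cxcl5* in chondrocytes reached 252 CPM in resolved replicate 2 (33 UMIs in 17 cells), next 81.9. For normally distributed values the criterion flags about 1 in 20 groups by chance, and 23 groups were tested. These levels include many zeros and pool runs that differ, so that rate need not hold here.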

How the results depend on the processing

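Over the alternatives other than leaving out a library, 115 of 120 values of the cluster comparison, 221 of 234 of the cell type comparison, 121 of 132 of the run comparison, 96 of 108 of the label comparison and 30 of 33 of the *Hk2* comparison kept their direction and their side of the threshold. The exceptions follow as log2 differences. The cause was not tested for any of them.

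Near 0, directions turned without a call. *Cxcl1* in F5 (-0.0012) was 0.030 with cells thinned to 2000 UMIs, 0.024 with no filter on low counts and 0.077 with no library block. *Cxcl2* in F11 (0.10) was -0.14 with no library block. *Cxcl2* against immune cells (-0.018) was 0.0050 at Leiden resolution 0.5, 0.082 thinned, 0.089 with no filter and 0.17 with no block. *Cxcl2* against proliferating cells (-0.18) was 0.19 thinned and 0.037 with no block. *Cxcl5* against proliferating cells (0.05) was -0.11 thinned, -0.63 with lower limits on genes and UMIs only and -0.71 with no block, and *Cxcl5* against muscle cells (-0.24) was 3.77 with no block. Thinned, 1 cell type was higher than fibroblasts in *Cxcl5*, muscle cells (-1.87). Calls also changed for *Cxcl1* against proliferating cells (0.79 thinned), *Cxcl5* against immune cells (5.25 with no block, not called) and *Cxcl2* in F0 (-0.81 with no filter).

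For *Cxcl5* by *Hk2*, the call was lost at 0.29 thinned, 0.36 with matched cells and 0.59 with no block. Genes called by *Hk2* went from 668 to 328 with matched cells and 1023 with *Hk2*-positive cells taken from 2 UMIs.

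By run, *Cxcl1* in suffixes 4 to 6 over 10 to 12 (-0.10) was 0.12 over all kept cells, 0.027 thinned and 0.094 without the clusters that 1 run mostly holds, the first and the last being chosen after seeing the data. *Cxcl2* in suffixes 10 to 12 passed at 1.04 over all kept cells and 1.11 with no filter, and in suffixes 4 to 6 at 0.90 and 0.70. *Cxcl2* in suffixes 7 to 9 was 0.055 without those clusters. *Cxcl5* in suffixes 10 to 12 passed at 3.43 with DESeq2, 3.33 thinned and 3.37 with no filter. Genes called were 263 for suffixes 10 to 12, and 88 at resolution 0.5, 838 over all kept cells, 135 with the label as a factor and 537 with no filter. They were 4137 for suffixes 4 to 6 (2039 thinned, 1039 without those clusters), 2993 for suffixes 7 to 9 (1757 and 768) and 4097 for suffixes 4 to 6 over 10 to 12 (2134 and 1168).

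By label, *Cxcl1* in peak (0.05) was -0.0020 over all kept cells, -0.33 with the run as a factor and -0.0033 without those clusters. With the run as a factor, resolved gave -0.10 for *Cxcl1* and -0.11 for *Cxcl2*, and resolving 0.35 for *Cxcl5*. *Cxcl2* in peak (-0.04) was 0.0084 with lower limits only and 0.010 without the cells of highest doublet score. *Cxcl5* in resolved (0.02) was -0.012 with DESeq2, -0.012 with RLE scaling and -0.035 without those cells. DESeq2 called 1 gene in resolving.

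Correlations of deviations from the label means were -0.520 to 0.694 for 18 pairs of libraries of the same replicate number (median 0.399, 11 over 0.1) and -0.798 to 0.730 for 36 other pairs (median -0.256, 12 over 0.1), and 5 of 12 libraries were closest to one of their own number. Since 7 same-number pairs were not over 0.1, the numbers were not taken as pairing. With a replicate block *Cxcl1* in peak was -0.021, *Cxcl5* in resolved 3.40 and *Cxcl5* in resolving -3.53, 0 genes were called in each label contrast, and no call changed.

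Leaving out 1 library at a time gave these ranges. By label they were -0.17 to 0.46 for *Cxcl1* in peak, -0.63 to 0.21 in resolving, -0.28 to 0.14 for *Cxcl2* in peak, -0.99 to 0.039 in resolving, -0.021 to 0.92 in resolved, -7.28 to 2.71 for *Cxcl5* in peak, -7.05 to 0.27 in resolving and -2.64 to 3.08 in resolved. By run they were -0.21 to 0.11 for *Cxcl1* in suffixes 4 to 6 over 10 to 12, -0.13 to 0.27 in 7 to 9, 0.40 to 1.10 for *Cxcl2* in 4 to 6, -0.79 to -0.092 in 7 to 9, 0.79 to 1.51 in 10 to 12 and 1.93 to 4.33 for *Cxcl5* in 10 to 12. Genes called there ranged from 87 to 384, with 110 without peak replicate 1, 125 without resolved replicate 3, 87 without resolving replicate 1 and 158 without resolving replicate 3. For clusters and types they were -0.078 to 0.054 for *Cxcl1* in F5, -0.16 to 0.26 for *Cxcl2* in F11, 0.48 to 1.05, 0.69 to 1.55, 0.33 to 0.99 and -0.19 to 0.62 for *Cxcl5* in F0, F11, F5 and F8, 3 to 5 for the clusters higher in *Cxcl5*, -0.17 to 0.084 for *Cxcl2* against immune cells, -1.06 to 3.08 for *Cxcl5* against muscle cells and -0.19 to 0.32 against proliferating cells.

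Depth limits *Cxcl5* most. Suffixes 1 to 3 held 15 of its UMIs in fibroblasts, and clusters F4, F6 and F9 held 23, 9 and 13 over all libraries, so folds against them are known only within wide limits. A *Cxcl1* UMI in a cell can be free RNA, as in 24 of 61 erythroid cells. Each label holds libraries of different runs, and SEs of 2.37 to 2.54 for *Cxcl5* by label leave large changes undetected.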
